A study of Homo sapiens with 45 samples.

Results

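The genes described here are 33 genes of recombination, Fanconi and mismatch repair, taken from a list of gene names with no threshold on a measured value. Their RNA was measured on 45 Illumina bead arrays of SUDHL6, an established human line of diffuse large B-cell lymphoma. A probe annotated to the gene alone was found for 29 of the 33. BRCA2, RBBP8, FANCA and FANCD2 had none and were not analysed here. A probe counted as above background when it stood more than 0.5 log2 units over its array's median on at least 3 arrays. By that measure 25 of the 33 genes were above background, among 8625 genes in all. ATR, FANCC, FANCM and RAD50 were not. The 3 probes of ATR lay between 6.60 and 7.30 on the log2 scale on the 44 arrays fitted below.

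Cells were nucleofected with 80 pmol of a pool of siRNAs and harvested after 20 h. In the first set of arrays the pools, spelled as in the labels, were siHMGA1, siFOXM1, siTFDP1 and siATF5 (3 arrays each), with the non-target pool siNT4 as control (4 arrays). The paired pools of that set were siHMGA1+siFOXM1 (3), siHMGA1+siTFDP1 (4), siHMGA1+siATF5 (3) and siTFDP1+siATF5 (2), with siNT4+siNT4 as control (2). A further set carries the letter A, which the labels do not explain. It holds siFOXM1_A, siNFYB_A, siNFYB+siFOXM1_A and the controls siNT4_A and siNT4+siNT4_A, with 3 arrays each. All groups share the cell line, the nucleofection and an siRNA pool. The line is a single cancer line. Nothing in the labels states that the arrays of a group are separate cultures, and the p-values therefore cover array-to-array spread that may be technical. The number of arrays limits the precision of every value. In bulk RNA, fewer cells with a transcript and less of it per cell cannot be told apart.

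Double-strand breaks are bound by the MRE11, RAD50 and NBN complex, and the kinases ATM and ATR pass the signal to CHEK2 and CHEK1. RBBP8 and EXO1 trim the ends, BRCA1 acts with BARD1, PALB2 and BRCA2 in recombination, and RAD51AP1, RAD51C, XRCC2, XRCC3 and the RAD54 translocases aid strand exchange. The Fanconi core complex attaches ubiquitin to the pair of FANCD2 and FANCI at interstrand crosslinks, and MSH6 and PMS2 act in mismatch repair. Germinal-centre B cells, from which this lymphoma type derives, divide fast and break their own DNA during antibody class switching. Many genes of these pathways are transcribed in S phase through E2F factors, whose DNA-binding partner is the product of TFDP1.

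Of 8 markers of germinal-centre B cells, 6 were above background, against 1 of 10 for T cells (LCK), 3 of 10 for myeloid cells (CD14, FCGR3A and CD68) and 1 of 10 for stromal and epithelial cells (VIM). The array labelled siTFDP1+siATF5 replicate 3 stood apart. Its median correlation with the other arrays was 0.694, against 0.975 to 0.993 elsewhere, 44.5% of its probes were above background, against 24.2% to 30.6% on the 44 other arrays, and 17 of the 25 genes were lower there than on every other array. It was left out of the fit, so siTFDP1+siATF5 rests on 1 array, assumed to vary like the other groups.

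The silenced genes gave a mixed check of the labels. HMGA1, a chromatin protein, fell by 1.55 on the log2 scale (SE 0.12) in siHMGA1, and TFDP1 fell by 1.06 (SE 0.10) in siTFDP1. On the arrays labelled siATF5, ATF5 fell by 0.69 (SE 0.14, adjusted p = 0.00284), but TFDP1 fell further there than in siTFDP1, by 1.86. Its values were 9.30, 9.52 and 9.59 on the arrays labelled siATF5, 10.18, 10.31 and 10.35 in siTFDP1, and 11.25 to 11.43 in siNT4. A low TFDP1 level therefore goes with the label siATF5 in every value below. TFDP1 was not lower in siHMGA1+siATF5 (0.00), where ATF5 differed from its control by -0.10 (adjusted p = 0.999). On the array labelled siHMGA1+siTFDP1 replicate 1, HMGA1 stood at 11.27, between the 11.25 and 11.28 of the control arrays. FOXM1 differed by -0.19 to -0.38 in the groups that received its pool, and NFYB by -0.07 and 0.12, none past the adjusted threshold of 0.05. The NFYB probe averaged 7.37 in siNT4_A and 7.43 in siNT4+siNT4_A, close to background, so a fall of NFYB could hardly be seen.

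On the arrays labelled siATF5, 4 of the 25 repair genes fell against siNT4 and none rose. They were RAD51AP1, the checkpoint kinase gene CHEK1, the BRCA1 partner BARD1, and FANCI. Their mean levels were 69.3% to 77.6% of the control's. The 4 genes are 16% of the members measured, while 3.15% of all 8625 genes fell in the same comparison (272 genes), 2.78% rose (240 genes) and 5.94% changed in either direction (512 genes), by limma's moderated test with an adjusted p under 0.05. Of the 25 genes, 21 had negative changes, with a median of -0.12, against -0.03 for all genes.

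CHEK1 is the kinase that halts the cell cycle when replication stalls. On the arrays labelled siATF5 it measured 7.88, 7.73 and 8.11, and in siNT4 8.34, 8.27, 8.35 and 8.44 (log2 values, replicates in order). Every array labelled siATF5 was below every control, and replicate 3 lay nearest to the controls. The change was -0.44 (SE 0.09, adjusted p = 0.00356). RAD51AP1, which stimulates strand invasion, measured 8.65, 9.07 and 8.77 on the arrays labelled siATF5 and 9.40, 9.44, 9.24 and 9.37 in siNT4. The groups did not overlap, and the change of -0.53 (SE 0.11, adjusted p = 0.00439) was the largest fall among the 25. BARD1, which with BRCA1 forms a ubiquitin ligase, measured 9.36, 9.03 and 9.31 against 9.71, 9.69, 9.46 and 9.74. One control, replicate 3, lay below the other siNT4 arrays but still above the arrays labelled siATF5, and the change was -0.42 (SE 0.10, adjusted p = 0.0136). FANCI, the ubiquitinated partner of FANCD2, measured 8.76, 8.47 and 8.74 against 8.79, 9.0, 9.12 and 9.19. Here the highest silenced array lay just under the lowest control, and the change was -0.37 (SE 0.11, adjusted p = 0.0469).

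**Figure D1:**
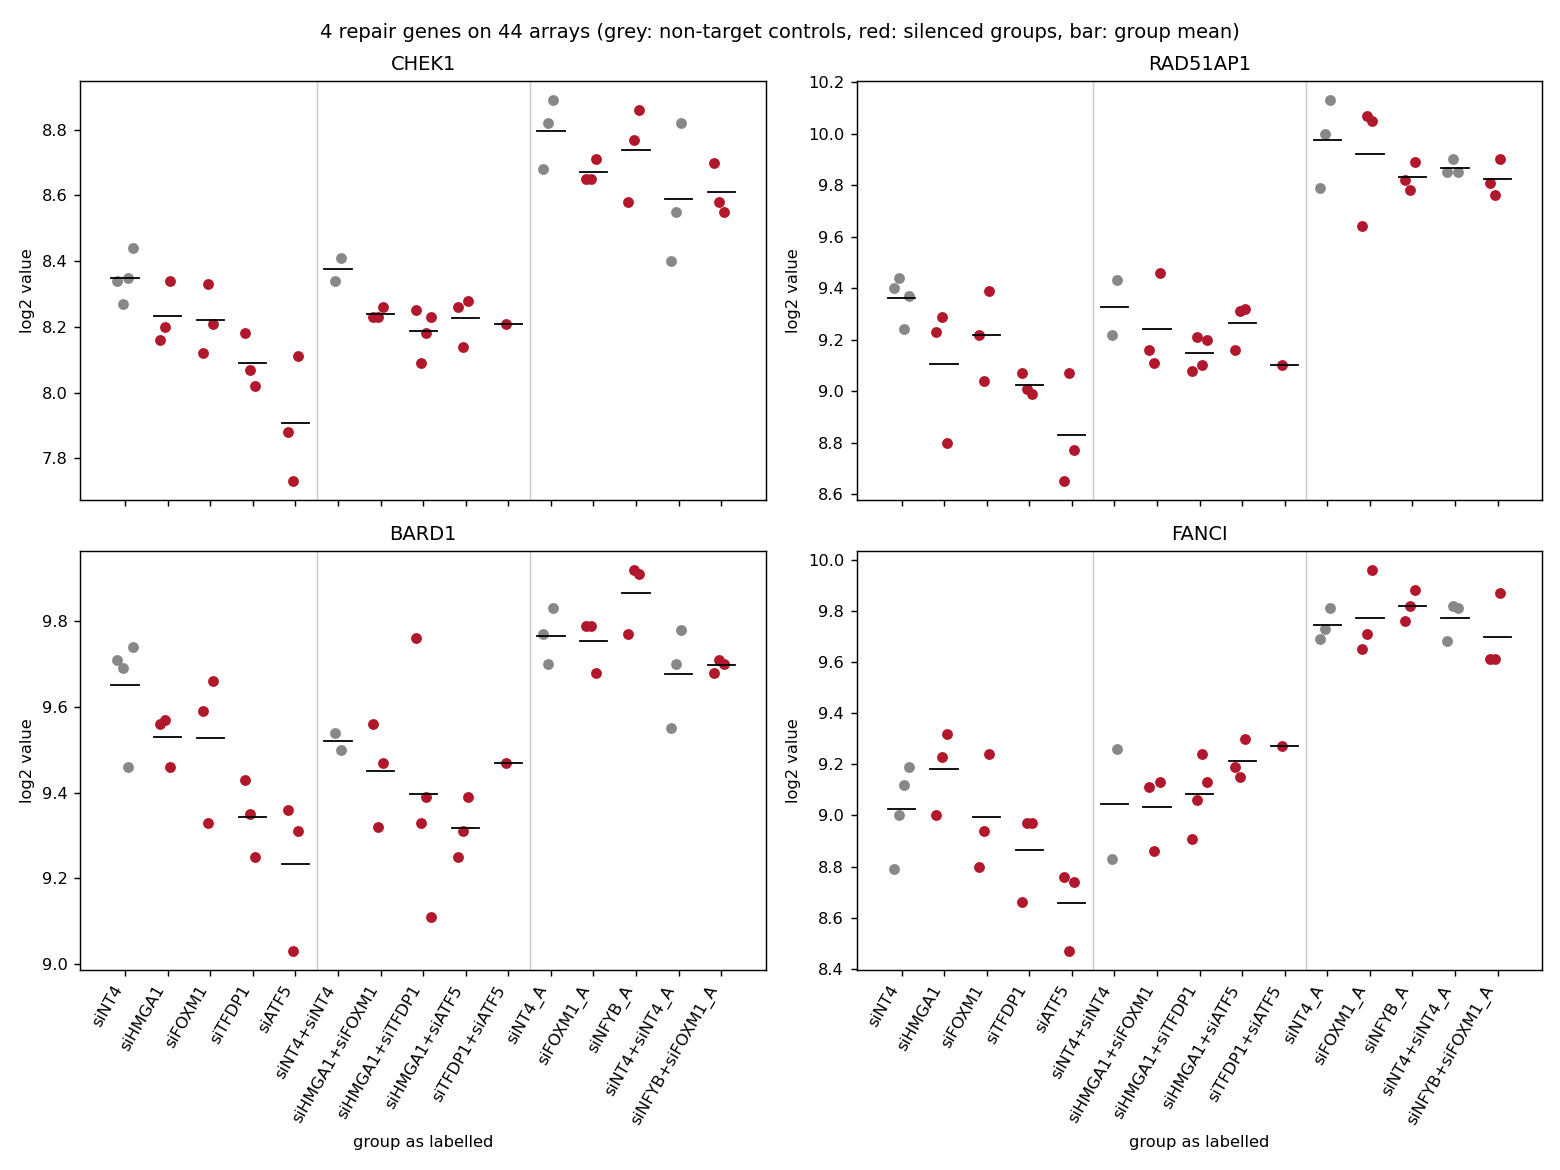
Log2 values (vertical axes) of CHEK1, RAD51AP1, BARD1 and FANCI on 44 arrays, by labelled group, with grey points for non-target controls, red points for silenced groups and a bar at each group mean; grey lines part single pools, paired pools and set A. The arrays labelled siATF5 lie below those of siNT4 in each panel (CHEK1 at 7.73 to 8.11 against 8.27 to 8.44), and RAD51AP1 and FANCI are higher on every array of set A than on any array of the first set.

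The calls depended on the arrays and on the fit. None of the 4 genes passed with all 45 arrays (RAD51AP1 came nearest, adjusted p = 0.0882), when the groups compared were fitted alone (adjusted p 0.197 to 0.244), or with the percentage of an array's probes above background added as a covariate, where the changes were -0.34 for CHEK1, -0.49 for RAD51AP1, -0.23 for BARD1 and -0.17 for FANCI. That share was 29.4% and 30.6% on siATF5 replicates 1 and 2, and 25.4% on replicate 3, which lay within the 25.2% to 25.9% of siNT4; its part in the falls was not tested. Without siATF5 replicate 1, CHEK1 and BARD1 passed, among 80 of 8625 genes. Without replicate 2, RAD51AP1 was the only member to pass, among 19 genes. Without replicate 3, 7 members passed, among 1747 genes. Set against the controls alone, replicate 3 gave -0.24 for CHEK1, -0.59 for RAD51AP1, -0.34 for BARD1 and -0.28 for FANCI, all below the controls; with 1 array the spread comes from the other groups, and since 2 of 8625 genes passed in that fit it says nothing about whether the calls hold. FANCI also missed it without any one of siNT4 replicates 2, 3 and 4 (adjusted p 0.078 to 0.158) and with either other filter on dim probes.

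The promoters of the genes that fell are shown because TFDP1, whose product binds E2F sites together with an E2F factor, was low on the same arrays, and a link between these facts was not tested. Each run covers 150 bases before to 30 bases after the first start RefSeq lists (GRCh38.p14), read 5′ to 3′ on the gene's strand, with motif matches in capitals. The E2F-DP motif was searched on both strands as TTCGCGC, as TTGGCGC, as TTCCCGC and as TTGCCGC. The box bound by NF-Y was searched as CCAAT, and the cell cycle homology region as TTTGAA or as TTCGAA. On the opposite strand the NF-Y box can share letters with the E2F-DP motif. BARD1 lies on the minus strand at chr2:214809654-214809833, CHEK1 on the plus strand at chr11:125626079-125626258, and RAD51AP1 on the plus strand at chr12:4538740-4538919. FANCI is named only.
BARD1: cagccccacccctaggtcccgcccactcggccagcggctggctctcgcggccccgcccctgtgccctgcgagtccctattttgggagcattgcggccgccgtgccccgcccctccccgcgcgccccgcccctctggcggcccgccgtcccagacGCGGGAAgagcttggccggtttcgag
CHEK1: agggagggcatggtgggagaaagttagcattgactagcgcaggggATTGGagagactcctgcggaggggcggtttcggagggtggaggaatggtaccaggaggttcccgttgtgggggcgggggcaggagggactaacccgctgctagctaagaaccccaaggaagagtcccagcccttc
RAD51AP1: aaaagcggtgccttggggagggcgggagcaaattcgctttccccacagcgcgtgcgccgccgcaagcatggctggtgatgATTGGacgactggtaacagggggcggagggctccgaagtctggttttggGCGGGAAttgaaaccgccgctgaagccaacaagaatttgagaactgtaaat
BARD1 holds an E2F-DP match that begins 5 bases after the start, on the opposite strand. CHEK1 holds a CCAAT box on the opposite strand at -105 and no E2F-DP match. RAD51AP1 holds a CCAAT box at -70 and an E2F-DP match at -21, both on the opposite strand.

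Over the longer window of 250 bases before to 50 after the start, 29 of the 33 members had a promoter to read. An E2F-DP match was found in 16 of the 29 (55.2%), against 13.1% of 27305 genes. Those 27305 are all genes with a promoter to read, and no share was counted for the 8625 genes above background alone. A CCAAT box was found in 14 (48.3%, against 35.7%) and a cell cycle homology region in 2 (6.9%, against 16.6%). These letters describe the windows and do not show binding.

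Among the other sensors and checkpoint genes, no change passed on the arrays labelled siATF5. The double-strand break kinase ATM changed by -0.12 (95% interval -0.38 to 0.13), its target CHEK2 by -0.03 (-0.20 to 0.13), and MRE11 and NBN, of the complex that binds broken ends, by -0.03 and -0.16. CHEK2 and PMS2 have near-identical pseudogene copies, so their probes may read more than 1 locus. The exonuclease gene EXO1 was at 7.95, 7.99 and 8.08 (in ascending order) against 8.08 to 8.47 in siNT4, a change of -0.26 (adjusted p = 0.0866). The RecQ helicase genes BLM and WRN differed by -0.02 and -0.13.

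PALB2, the link between BRCA1 and BRCA2, had the most positive change of the 25, at 0.32 (SE 0.11, adjusted p = 0.0791), with values of 8.18 to 8.68 that overlapped the 7.98 to 8.31 of siNT4. In the strand exchange group RAD51C, XRCC2 and XRCC3 changed by -0.23, 0.00 and 0.06, and the translocase genes RAD54L and RAD54B by -0.20 and 0.08. The 5 measured genes of the Fanconi core ran from -0.36 for FANCF to 0.12 for FANCB, with FANCG at -0.18, FANCL, the ubiquitin ligase of the complex, at -0.11, and FANCE at -0.07. FANCF was above background on 27 of 45 arrays, and its 3 values were wide apart, at 6.85, 7.18 and 7.57, against 7.46 to 7.62 (adjusted p = 0.0999). MSH6, which takes part in recognising mismatches, measured 11.69 to 11.78 against 11.81 to 12.06. Its groups did not overlap, but the change of -0.22 missed the threshold (adjusted p = 0.126). With MSH6 and the 4 that fell, 5 of 25 genes (20%) lay wholly below siNT4, against 7.62% of all genes.

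**Figure D2:**
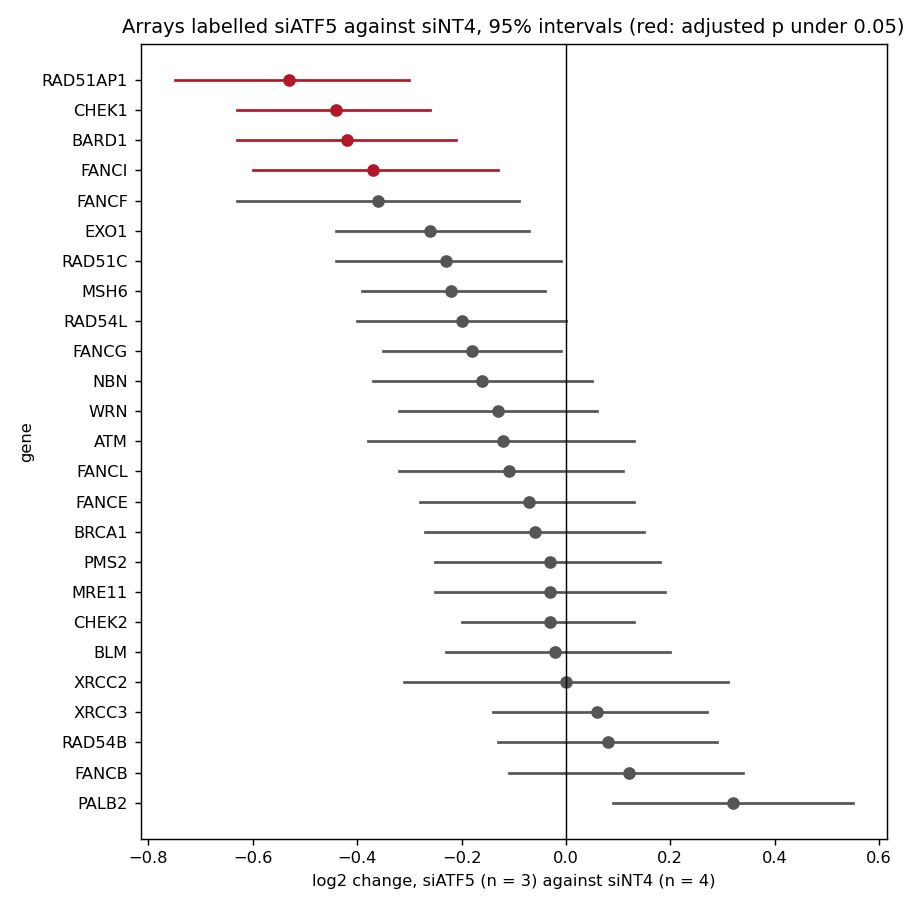
Log2 change (horizontal axis) of the 25 repair genes on the 3 arrays labelled siATF5 against the 4 siNT4 arrays, with 95% intervals and adjusted p under 0.05 in red. RAD51AP1, CHEK1, BARD1 and FANCI are the lowest, from -0.53 to -0.37, and PALB2 is the highest at 0.32.

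Beyond the members, of 88 other repair genes, 69 were above background; 5 fell and 2 rose on the arrays labelled siATF5, with a median of -0.02. Those that fell were PCNA, the sliding clamp (-0.37), USP1, which removes ubiquitin from FANCD2 (-0.47), RMI1, a partner of BLM (-0.46), POLQ, the end-joining polymerase (-0.36), and the ligase gene LIG3 (-0.50). Those that rose were the helicase genes RTEL1 (0.74, SE 0.22) and BRIP1 (0.41, SE 0.13). BRIP1 averaged 7.19 in siNT4, and LIG3 averaged 7.13 on the arrays labelled siATF5, both close to background. Of 15 measured genes of replication origins, chosen for comparison, 5 fell (MCM4, MCM10, CDT1, CDC45 and GINS3), with a median of -0.21. MCM4, a subunit of the replicative helicase, changed most, by -0.76 (SE 0.13, adjusted p = 0.000418).

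In siTFDP1, which shares the siNT4 controls, RAD51AP1, BARD1 and CHEK1 had the smallest p-values of the members, and none passed. RAD51AP1 measured 9.07, 9.01 and 8.99, a change of -0.33 (adjusted p = 0.227). BARD1 measured 9.43, 9.35 and 9.25, a change of -0.31 (adjusted p = 0.227), and CHEK1 8.18, 8.07 and 8.02, a change of -0.26 (adjusted p = 0.25). With FANCF, 4 of 25 genes (16%) lay wholly below siNT4, against 6.37% of all genes. Set directly against siTFDP1, the arrays labelled siATF5 differed by -0.18 for CHEK1 (95% interval -0.38 to 0.01), -0.19 for RAD51AP1 (-0.44 to 0.05), -0.11 for BARD1 (-0.33 to 0.11) and -0.21 for FANCI (-0.46 to 0.04). Read by their brightest probes, none of the 25 passed in that comparison, where 1.33% of all genes did. EXO1 had the smallest p among these (-0.25, adjusted p = 0.246). A second, dimmer BRCA1 probe did pass, at -0.41 (SE 0.11, adjusted p = 0.0437), where the brighter one gave 0.12. At an unadjusted p under 0.05 there were 3 of 25 (12%), against 13.5% of all genes.

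No repair gene passed in any of the 10 silencings other than siATF5 by limma's test, and few genes of any kind did. The share of all genes that passed was 0.0812% in siTFDP1, 0.0116% in siHMGA1, siHMGA1+siFOXM1, siHMGA1+siTFDP1, siHMGA1+siATF5 and siNFYB+siFOXM1_A, and 0% in siFOXM1, siTFDP1+siATF5, siFOXM1_A and siNFYB_A. At an unadjusted p under 0.05, siTFDP1 had 3 members (12%, against 12.6% of all genes), siHMGA1+siFOXM1 had 2 (8%, against 8.39%), siHMGA1 had 1 (4%, against 2.13%), siFOXM1 had 1 (4%, against 10.6%) and siHMGA1+siATF5 had 1 (4%, against 4.17%). The other 5 had 0, against 3.25% in siHMGA1+siTFDP1, 2.99% in siTFDP1+siATF5, 2.27% in siFOXM1_A, 1.65% in siNFYB_A and 2.57% in siNFYB+siFOXM1_A. The F test over all 11 comparisons called none of the 25 and 0.267% of all genes.

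Read by their brightest probes, the 3 members of smallest p in each of these silencings were as follows, none past the threshold. In siHMGA1, RAD51AP1 differed by -0.25, RAD51C by -0.20 and FANCB by -0.17. In siFOXM1, RAD51C differed by -0.24, FANCF by -0.27 and PMS2 by -0.18. The other RAD51C probes above background gave 0.07 and -0.11 there, and leaving out single arrays gave -0.43 to -0.10 for FANCF and -0.28 to -0.05 for PMS2. MRE11's dimmer probe gave 0.36 in siFOXM1 (adjusted p = 0.341 by limma's test), where its brighter probe gave -0.08. Under siHMGA1+siFOXM1, FANCL stood 0.29 above its control, FANCF differed by -0.37 (-0.64 to -0.11 with single arrays left out) and PALB2 by 0.25. NBN's dimmer probe gave -0.39 in that group (adjusted p = 0.516 by limma's test), where its brighter probe gave 0.02. CHEK1 differed by -0.19, ATM by 0.26 and FANCL by 0.17 in siHMGA1+siTFDP1. For siHMGA1+siATF5 the differences were -0.27 for FANCB (-0.05 by its dimmer probe), 0.25 for ATM and -0.21 for BARD1. On the 1 array of siTFDP1+siATF5, NBN differed by -0.33, ATM by 0.34 and CHEK2 by 0.21. These 3 comparisons share the same 2 control arrays. In set A, RAD54B differed by 0.19 in siFOXM1_A (0.03 without siFOXM1_A replicate 2, 0.36 without its replicate 3). MRE11 differed there by 0.20 (-0.07 by its dimmer probe) and CHEK1 by -0.12. For siNFYB_A the differences were -0.13 for EXO1, -0.14 for PMS2 and -0.14 for RAD51AP1. FANCF differed by -0.21, PALB2 by 0.17 and PMS2 by 0.15 in siNFYB+siFOXM1_A. RAD51AP1 was the member with a negative change in each of the 11 comparisons, from -0.53 to -0.04, and CHEK1 was negative in 10, though comparisons within a set share controls.

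**Figure D3:**
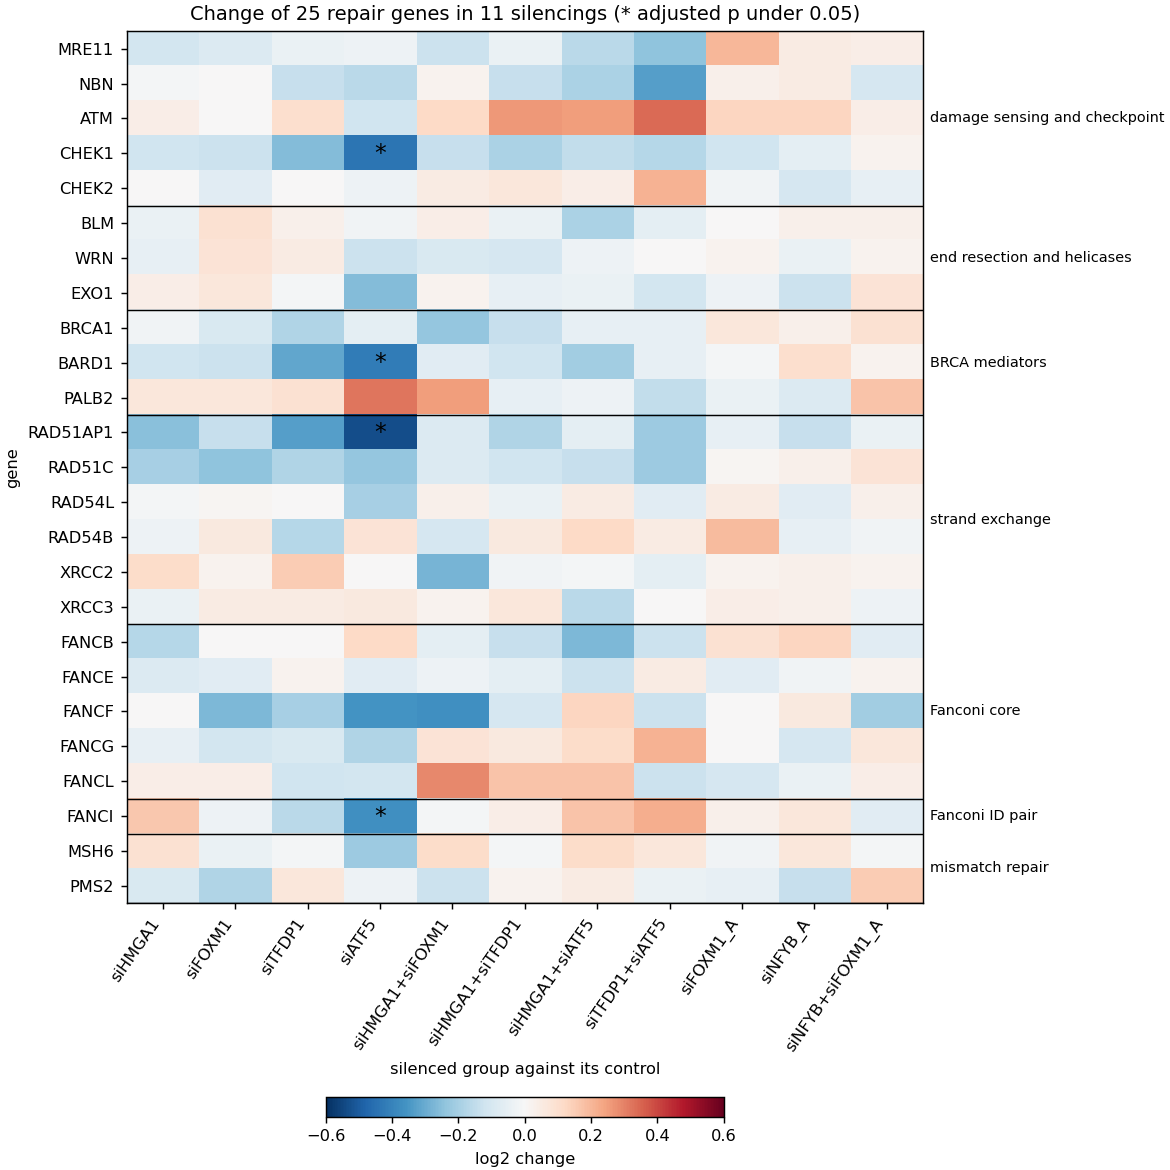
Log2 change of 25 repair genes (rows, by role) in the 11 silenced groups against their own controls (columns), blue for lower and red for higher, on a scale from -0.6 to 0.6; a star marks an adjusted p under 0.05. The 4 stars lie in the siATF5 column.

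In siHMGA1+siATF5, RAD51AP1 changed by -0.06, CHEK1 by -0.15, BARD1 by -0.21 and FANCI by 0.17, none past the threshold. FANCI measured 9.19, 9.15 and 9.30 in siHMGA1+siATF5 against 8.83 and 9.26 in its control. RAD51AP1 measured 9.16, 9.31 and 9.32 against 9.22 and 9.43. The change with the HMGA1 pool minus the change without it was 0.54 for FANCI (95% interval 0.17 to 0.90, adjusted p = 0.163), 0.47 for RAD51AP1 (0.12 to 0.82, adjusted p = 0.209) and 0.29 for CHEK1 (0.01 to 0.58, adjusted p = 0.341). None of the 25 passed, where 0.128% of all genes did; at an unadjusted p under 0.05 there were 7 (28%), against 14.2%. TFDP1 itself was at 11.34 to 11.50 in siHMGA1+siATF5, so the groups also differ in TFDP1. The difference in the effect of siFOXM1 between the 2 sets passed for no member (0% of all genes passed; 0 members and 4.81% of all genes at an unadjusted p under 0.05), and MRE11 had the smallest p, with a difference of 0.27. Its dimmer probe gave the opposite sign, at -0.43 (adjusted p = 0.964).

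In the fit of 44 arrays, 8 and 5 members passed between the control arrays of the 2 sets, against 4 in siATF5 and 0 in the other silencings. With all 45 arrays these counts were 4 and 1 between the sets, 0 in siATF5 and 17 in siTFDP1+siATF5. Of all 8625 genes, 4 passed in siATF5 and 4602 in siTFDP1+siATF5 in that fit. The counts of 4 and 1 stand without a count over all genes and are not read as results about the members. Over whole sets, EXO1, BRCA1, RAD51AP1, RAD54L, FANCG and FANCI were higher on each of the 15 arrays of set A than on any of the 29 fitted arrays of the first set. These 6 are 24% of the members measured, whereas 0.696% of all genes (60 of 8625) were separated this way and 0.0928% (8) the opposite way. This comparison was made after the values had been seen, and since the meaning of A is not given, the set cannot be told apart from anything else that differed with it. The mean over the 25 members ran from 8.84 to 8.99 per array in the first set and from 9.17 to 9.30 in set A.

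Between the single controls, siNT4_A and siNT4, 8 of 25 members were higher in set A and none lower (32% of members, against 2.18% of all genes higher and 0.754% lower). Between the doubled controls, siNT4+siNT4_A and siNT4+siNT4, 5 were higher and none lower (20%, against 0.452% and 0.128%). The median difference was 0.22 and 0.19 for the members, and -0.01 for all genes in both comparisons.

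EXO1, an exonuclease of end resection and of mismatch repair, differed most between the single controls. In ascending order it measured 9.12, 9.22 and 9.26 in siNT4_A against 8.08, 8.15, 8.36 and 8.47 in siNT4. It measured 8.83, 8.89 and 9.07 in siNT4+siNT4_A against 8.18 and 8.35 in siNT4+siNT4. The differences were 0.94 (SE 0.09, 1.92-fold, adjusted p = 3.1e-09) and 0.67 (SE 0.11, adjusted p = 6.8e-04). FANCI measured 9.69, 9.73 and 9.81 in siNT4_A against 8.79, 9.0, 9.12 and 9.19 in siNT4. Its difference was 0.72 in both comparisons (SE 0.11, adjusted p = 7.0e-05, and SE 0.14, adjusted p = 0.0028). FANCG, of the Fanconi core, measured 9.32 to 9.5 against 8.61, 8.78, 8.83 and 8.86, and differed by 0.63 (adjusted p = 3.8e-06) and 0.54 (adjusted p = 0.00218). The other Fanconi core genes did not pass: FANCL differed by 0.27 and 0.39, FANCB by 0.24 and 0.26, FANCE by 0.09 and 0.12, and FANCF by -0.04 and 0.04.

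RAD51AP1 differed by 0.61 (SE 0.11) between the single controls and by 0.54 (SE 0.13) between the doubled ones, and RAD54L, a DNA translocase of recombination, by 0.55 (SE 0.10) and 0.50 (SE 0.12); all 4 values passed. BRCA1 differed by 0.58 (adjusted p = 4.3e-04) and 0.47 (adjusted p = 0.0657), CHEK1 by 0.44 (adjusted p = 0.002) and 0.21 (adjusted p = 0.599), and BLM by 0.36 (adjusted p = 0.0499) and 0.31 (adjusted p = 0.373), so by their brightest probes these 3 passed between the single controls alone. The dimmer BRCA1 probe passed between the doubled controls too (0.80, adjusted p = 0.000216). Leaving out any 1 of the 7 single-control arrays lost the call of BLM (adjusted p 0.0641 to 0.214) and left BRCA1 and CHEK1 past the threshold. BARD1, which fell on the arrays labelled siATF5, differed between the sets by 0.11 (95% interval -0.10 to 0.32) and 0.16 (-0.09 to 0.40). WRN, PALB2, XRCC2 and NBN differed between the single controls by 0.02, -0.02, 0.01 and 0.10. Of the 15 origin genes, 11 were higher in siNT4_A and 4 in siNT4+siNT4_A, with medians of 0.45 and 0.38, and of the 69 other repair genes 5 and 2, with PCNA higher by 0.52 in both. Between the doubled controls, leaving out any 1 of the 5 arrays lost the call of RAD51AP1 (adjusted p 0.0831 to 0.668), and leaving out any but siNT4+siNT4_A replicate 3 lost that of RAD54L (adjusted p up to 0.28). FANCG and FANCI lost theirs without siNT4+siNT4 replicate 2 (adjusted p = 0.129 and 0.502), and EXO1 without its replicate 3 (adjusted p = 0.0624). The count of members there was 1 without siNT4+siNT4 replicate 2, 2 without its replicate 3 and 3 without siNT4+siNT4_A replicate 1 or 2. These counts stand without a count over all genes and are not read as results about the members.

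**Figure D4:**
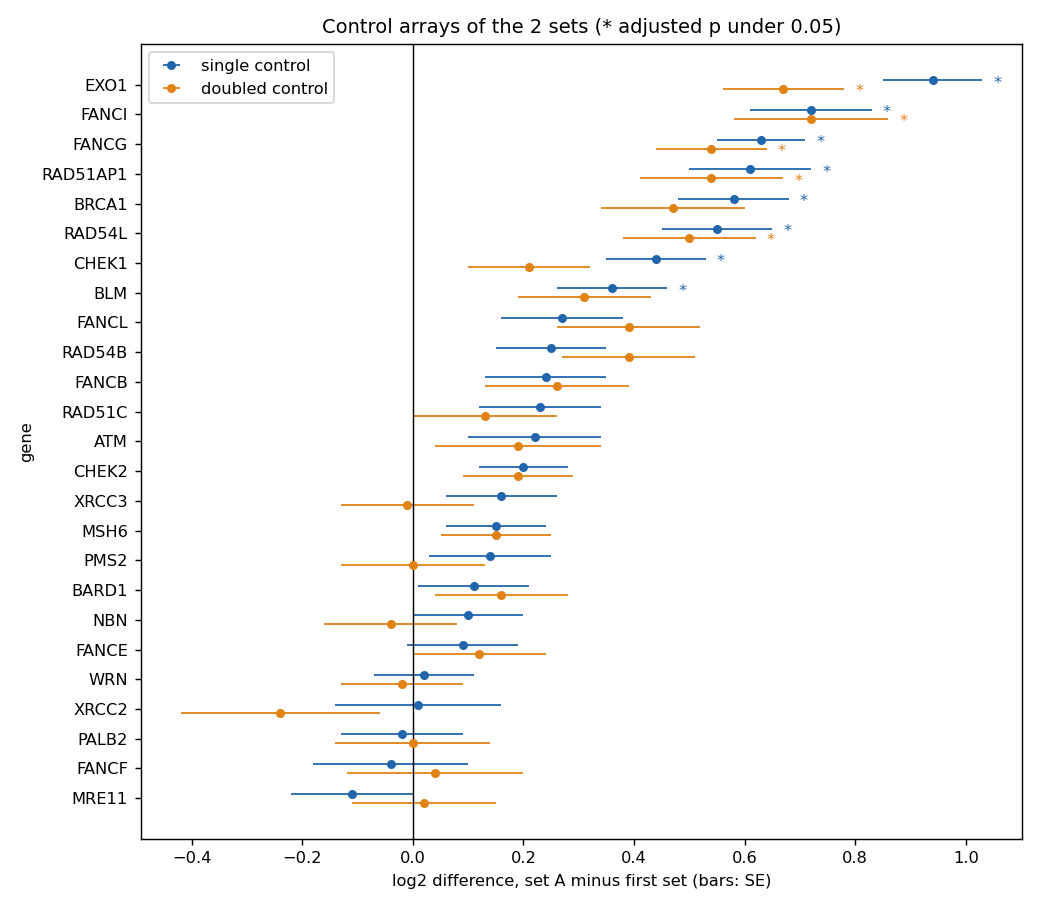
Log2 difference (horizontal axis, bars of 1 SE) of the 25 repair genes between the control arrays of set A and those of the first set, in blue for the single and in orange for the doubled control, with a star at an adjusted p under 0.05. EXO1, FANCI, FANCG, RAD51AP1 and RAD54L carry a star in both colours, with differences of 0.50 to 0.94.

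The doubled and the single control of the same set did not differ for any member (0% of all genes passed in the first set and 0.0348% in set A). At an unadjusted p under 0.05 there were 0 members in the first set (3.12% of all genes) and 4 in set A (16%, against 8.15%). EXO1, at -0.27 (adjusted p = 0.41), and FANCG, at -0.23 (adjusted p = 0.473), had the smallest p-values in set A.

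Some members were read by more than 1 probe, and the probes of BRCA1 gave different answers. The brighter probe measured 8.53 to 8.59 on the arrays labelled siATF5 and 8.44 to 8.81 in siNT4, a change of -0.06 (adjusted p = 0.78). The dimmer probe measured 7.84, 7.73 and 8.16 against 8.33, 8.23, 8.27 and 8.35, a change of -0.38 (SE 0.10, adjusted p = 0.023). Between the sets both probes were higher in A, by 0.58 and 0.64 for the single controls, and by 0.47 and 0.80 for the doubled ones. The dimmer probe passed in both comparisons (adjusted p = 8.21e-05 and 0.000216), the brighter one between the single controls alone. A second EXO1 probe, above background on 14 of 45 arrays, differed by 0.43 (adjusted p = 0.00187) between the single controls and by 0.30 (adjusted p = 0.234) between the doubled ones. Between the single controls, a second probe of RAD51C (0.44, adjusted p = 0.0198) and of CHEK2 (0.41, adjusted p = 0.0214) passed where their brightest probes did not (0.23 and 0.20), and between the doubled controls these second probes gave 0.11 and 0.06. NBN's dimmer probe changed by -0.37 (adjusted p = 0.0575) on the arrays labelled siATF5 and its brighter probe by -0.16, MRE11's by 0.29 and -0.03, and ATM's by -0.24 and -0.12. CHEK1, RAD51AP1, BARD1 and FANCI were each read by 1 probe.

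**Figure D5:**
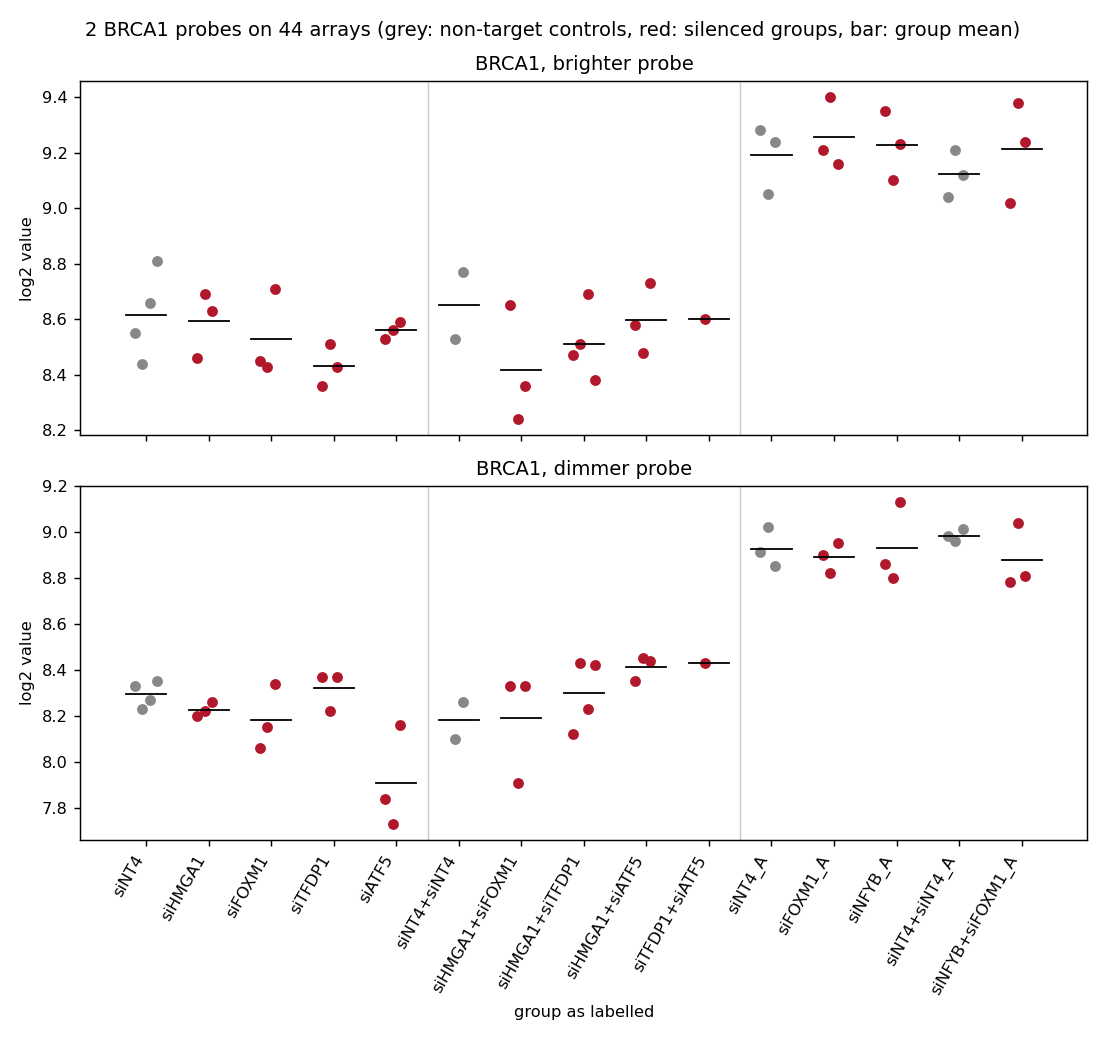
Log2 values (vertical axes) of the brighter and the dimmer BRCA1 probe on 44 arrays, by labelled group, with grey points for non-target controls, red points for silenced groups and bars at group means. The dimmer probe is lower on the arrays labelled siATF5 (7.73 to 8.16) than in siNT4 (8.23 to 8.35), the brighter probe is not, and both are higher in set A.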

How the data were processed

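RNA of 45 SUDHL6 samples was hybridised to Illumina bead arrays. The authors deposited log2 values for 45013 probes, from 6.28 to 16.28; neither the labels nor the header name a normalization. A further deposited table of 45 signal and 45 detection columns was not used, since its columns carry no sample names that the labels hold. Of the probes, 28746 were annotated to 1 symbol, 8 to more and 16259 to no symbol. Probes more than 0.5 log2 units over the array median on at least 3 arrays were kept, and each gene was read by its probe of highest mean, which left 8625 genes. Groups came from the labels. One limma fit (limma 3.58.1, R 4.3.3; lmFit and eBayes, 1 mean per group) covered 44 arrays, with p-values adjusted by Benjamini-Hochberg over 8625 genes and a threshold of 0.05. The fit was tested on simulated data with known changes. The members were listed by gene name, not by a threshold on values, but the members, the gene lists, the naming rule and the choice to leave out siTFDP1+siATF5 replicate 3 were made with earlier results of these data known; the comparisons of the 2 sets were added after the values were seen. Named in each comparison were the members past the threshold or, where none passed, those of smallest p. Alternatives were all 45 arrays, array weights, the compared groups alone, a replicate block, other filters on dim probes, the mean of probes, quantile normalization, trend and robust fitting, a covariate, and each array left out. A match of promoter letters was counted without a test.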

Additional observations from a re-analysis of the deposited data

Results flagged for a closer look

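In the 2 groups of 4 arrays, siNT4 and siHMGA1+siTFDP1, the 25 members gave 50 checks for an array far from the others, of which chance would mark about 1 in 20. BARD1 was at 9.46 on siNT4 replicate 3, against 9.69 to 9.74 on the other siNT4 arrays, and without that array its change on the arrays labelled siATF5 was -0.48. FANCB was at 8.71 on the same array, against 8.34 to 8.38. BLM was at 8.61 on the array labelled siHMGA1+siTFDP1 replicate 1, against 8.27 to 8.30 on the others of that group. EXO1 was at 8.09 on siHMGA1+siTFDP1 replicate 4, against 8.24 to 8.26.

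The array labelled siTFDP1+siATF5 replicate 3, which the fit leaves out, had 44.5% of its probes above background, against 25.2% to 25.6% in its control siNT4+siNT4. With it, 17 members passed in siTFDP1+siATF5, where 4602 of all 8625 genes did.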

How the results depend on the processing

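With siTFDP1+siATF5 replicate 3 included (all 45 arrays), members called in siATF5 against siNT4 went from 4 to 0 and in siTFDP1+siATF5 from 0 to 17. Of all 8625 genes, 4 passed in siATF5 and 4602 in siTFDP1+siATF5 in that fit. Between the single controls of the sets the count of members went from 8 to 4, and between the doubled controls from 5 to 1. ATM in siTFDP1+siATF5 turned from 0.34 to -0.89. In siATF5 the changes stayed at -0.44 for CHEK1, -0.53 for RAD51AP1, -0.42 for BARD1 and -0.37 for FANCI, and only their adjusted p-values rose. All groups share 1 estimate of the spread, and the added array enters the siATF5 comparison only through it. With array weights on all 45 arrays siATF5 had 2 members, among 179 of 8625 genes. With the compared groups alone siATF5 had 0 (3 of 8625 genes passed), and the doubled controls 8. With the percentage of probes above background added as a covariate siATF5 had 0 (2 of 8625 genes passed). A fit with siATF5 replicate 3 alone was chosen after seeing the data, and with 1 array it says nothing about the calls. Leaving out single arrays gave 1 to 7 members in siATF5, 0 to 1 for siATF5 with and without siHMGA1, 0 to 1 for the F test over the 11 silencings (1 without siATF5 replicate 3 in both), 7 between the single controls, and 1 to 4 between the doubled controls. In siATF5 the fit with 1 member called 19 of 8625 genes, and the fit with 7 members called 1747. Member counts given here without a count over all genes describe the fits and are not read as results about the members. The cause of the other moves was not tested, other than that fewer arrays enter some fits. The main fit did not pair samples by replicate number. Correlations of same-numbered deviations ran from -0.26 to 0.38, with 2 or 3 pairs per comparison, too few to decide whether the numbers pair the samples. With the replicate block siATF5 had 4 members, among 449 of 8625 genes, and no other count moved. Between the sets the block could not be fitted. The number of arrays, and for ATR, FANCC, FANCM and RAD50 signal close to background, limit what could be seen.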
